A study of Mus musculus with 13 samples.

Results

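Peaks of 2 histone marks, H3K4me3 and H3K27me3, were set against each other within each of 4 mouse leukaemia cell lines. All peaks on the 19 autosomes entered, 104682 of the 109165 regions in the 9 lists of the series. H3K4me3 had 16994 peaks in 748T, 15793 in 106A, 17109 in 961C and 17030 for the SCL-LMO1 control. H3K27me3 had 8362, 5424, 19102 and 4868 peaks in the same order. A peak counted as carrying both marks when a peak of the other mark in the same line shared at least 1 bp with it. H3K4me3 peaks were divided by width into narrow (under 500 bp), middle (500 to under 2000 bp) and broad (2000 bp or more) ones.

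The lines 748T and 106A (titled M106A in the labels) are lymphoblast lines from pre-T lymphoblastic leukaemia (pre-T LBL) of different C57BL/6 mice that carried NP23, the fusion of the nuclear pore protein NUP98 with the PHD finger protein PHF23. Line 961C is a myeloblast line from NP23 acute myeloid leukaemia (AML), also C57BL/6, and the SCL-LMO1 control is a lymphoblast pre-T LBL line on a C57BL/6+C3H hybrid background, called a control in the labels. All 4 lines are labelled cytokine independent, and the labels do not name the promoter that drives NP23. Each line and mark has 1 library, so differences between lines cannot be told apart from differences between libraries. Lineage, oncogene and strain also differ between the lines. The labelled cell types were not checked against marker genes, because gene positions for mm9 were not used here.

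H3K4me3 is laid down at the start sites of active and poised genes by the SET1 and MLL methyltransferases. The broadest H3K4me3 domains are known for lying over highly transcribed genes that define a cell's identity. H3K27me3 is the mark of Polycomb repressive complex 2, whose catalytic subunit is EZH2 or EZH1, and it covers silenced developmental genes. Promoters that carry both marks are called bivalent and are best known from embryonic stem cells. In a population of cells, overlapping peaks can come from the same nucleosomes, from different alleles or from different cells, and these cannot be told apart here. The PHD finger of PHF23 binds H3K4me3, which gives the mark its interest in NP23 leukaemia.

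Few H3K4me3 peaks overlapped H3K27me3 in any line. H3K27me3 peaks themselves covered only 0.050% to 0.365% of the span between the outermost autosomal peaks, so low shares alone do not show that the marks avoid each other. In line 748T, 138 of 16994 H3K4me3 peaks overlapped H3K27me3, a share of 0.812% (95% Clopper-Pearson interval 0.683 to 0.959). In 106A the share was 0.146% (0.0923 to 0.218), from 23 of 15793 peaks. In 961C it was 2.17% (1.96 to 2.398), from 371 of 17109 peaks. In the SCL-LMO1 control none of the 17030 H3K4me3 peaks overlapped. Taking 0 to allow 3 peaks gives a share of up to 0.0176%, and the Clopper-Pearson upper limit is 0.0217%. The intervals of the 4 lines do not overlap, and the pre-T NP23 lines 748T and 106A stand apart from each other as well as from the control. Intervals cover counting error only, and peaks in 1 list share a library.

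Seen from H3K27me3, the shares were 1.75% in 748T (146 of 8362 peaks), 0.461% in 106A (25 of 5424) and 2.04% in 961C (389 of 19102). None of the 4868 H3K27me3 peaks of the SCL-LMO1 control overlapped H3K4me3. Taking 0 to allow 3 peaks gives up to 0.0616%, and the Clopper-Pearson upper limit is 0.0757%. Here 748T and 961C lie close together, with intervals of 1.48 to 2.05 and 1.84 to 2.25. The H3K27me3 list of 961C is also the longest. With the 4868 tallest H3K27me3 peaks of every line, the H3K27me3 share was 1.89% in 748T and 3.45% in 961C, and the H3K4me3 share 0.530% and 0.988%.

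The H3K27me3 lists were made of short regions, with median widths of 204 bp in 748T, 219 bp in 106A, 292 bp in 961C and 214 bp for the SCL-LMO1 control. They covered 0.0928%, 0.0630%, 0.365% and 0.050% of the 2402 Mb between the outermost autosomal peaks. Of the H3K4me3 bases themselves, 0.141% lay under H3K27me3 in 748T, 0.0531% in 106A, 0.403% in 961C and 0% for the SCL-LMO1 control. The ratio of these shares was 1.52 in 748T, 0.843 in 106A and 1.10 in 961C. Bases with H3K4me3 thus carried H3K27me3 between 0.843 and 1.52 times as often as the average autosomal base in the NP23 lines, and none did in the SCL-LMO1 control.

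**Figure D1:**
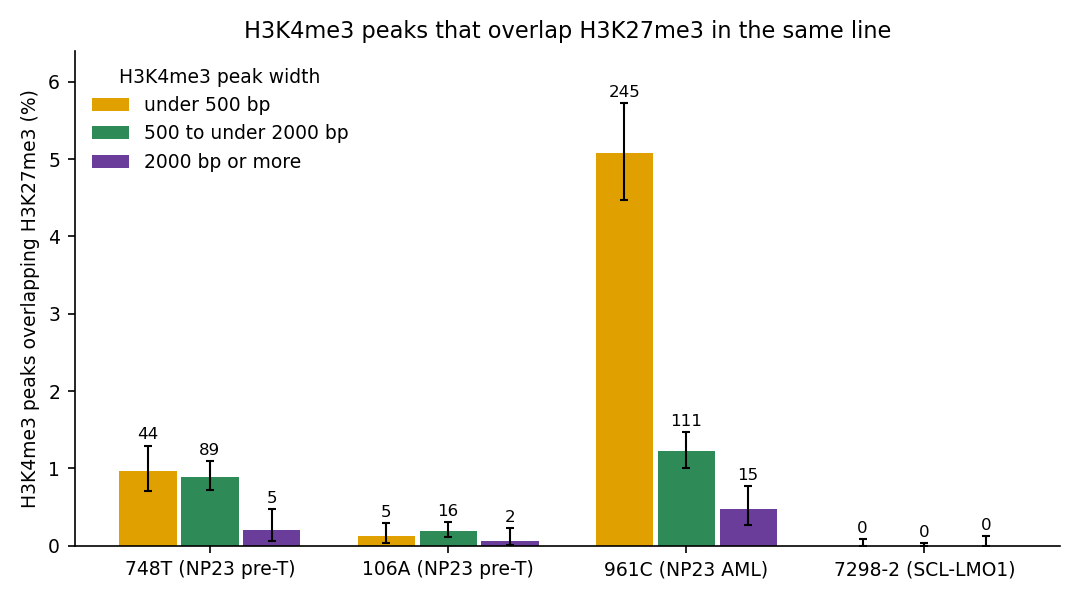
Share of H3K4me3 peaks that overlap H3K27me3 in the same line (y axis, percent) for each width class of H3K4me3 in each of the 4 lines (x axis), with whiskers for 95% Clopper-Pearson intervals and the number of overlapping peaks above each bar. Narrow peaks of 961C stand highest at 5.07%, broad peaks are lowest in 748T, 106A and 961C, and the SCL-LMO1 control has no overlapping peak in any class.

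The share of H3K4me3 peaks with H3K27me3 differed by width, most of all in 961C. There 5.07% of narrow peaks (245 of 4831), 1.22% of middle peaks (111 of 9072) and 0.468% of broad peaks (15 of 3206) overlapped, with intervals that do not meet. In 748T narrow and middle peaks had overlapping intervals, at 0.966% (interval 0.703 to 1.29) and 0.893% (0.718 to 1.10), and broad peaks were lower at 0.202% (0.0657 to 0.471). In 106A the shares were 0.123%, 0.187% and 0.0630%, from 5, 16 and 2 peaks, with overlapping intervals. The broad share minus the narrow share averaged -1.36 percentage points (SD 2.19, n = 4 lines), lower in 3 lines and 0 for the SCL-LMO1 control. An exact sign-flip permutation test over lines gave a two-sided p = 0.25. In general 4 lines allow no p below 0.13, but flipping the sign of the 0 of the SCL-LMO1 control changes nothing. The smallest p that this comparison could reach was therefore 0.25. Without 961C the mean was -0.275 percentage points, and with limits of 300 and 3000 bp the difference in 106A turned to 0.13 percentage points, where only 2 peaks of 3000 bp or more overlapped.

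In base pairs, a measure that does not favour wide peaks, the share was highest in narrow and lowest in broad peaks of the NP23 lines. Narrow peaks had 0.592% of their bases under H3K27me3 in 748T and 3.05% in 961C, 6.38 and 8.34 times the share of the whole autosomal span. Broad peaks had 0.0239% and 0.113%, 0.257 and 0.310 times that share. In 106A the ratio was 1.20 for narrow, 0.988 for middle and 0.635 for broad peaks. Narrow H3K4me3 peaks of 748T and 961C thus held more H3K27me3 per base than the average autosomal base, and broad ones held less.

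The width profile of 961C was not smooth. Peaks of 150 to under 200 bp overlapped in 12.4% of cases (70 of 563, interval 9.82 to 15.4), against 4.93% (3.81 to 6.26) below 150 bp and 4.16% (3.08 to 5.48) from 200 to under 300 bp. The share was lowest, 0.342%, at 3000 bp or more. In 748T it was highest, at 1.33%, from 200 to under 300 bp, and 0.381% from 150 to under 200 bp. The second, unexplained track in the lists was above a mean of 1 read in 13.1% of the overlapping narrow peaks of 961C and in 4.84% of the others. With such peaks left out of both lists, the narrow share in 961C was 4.61% and the broad share 0.469%.

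The overlaps themselves were small. The median overlap was 159 bp in 748T (147 pairs of peaks), 259 bp in 106A (25 pairs) and 155 bp in 961C (394 pairs). In 748T 59.9% of the pairs only crossed at an edge, 36.1% had the H3K27me3 peak wholly inside the H3K4me3 peak, and 4.08% had the reverse. In 961C 14.0% of pairs had the H3K4me3 peak wholly inside H3K27me3, and 51 of those 55 H3K4me3 peaks were narrow. In broad H3K4me3 peaks the shared stretch took a median of 7.68% of the H3K4me3 peak in 748T and 9.44% in 961C. In 106A it took 29.5% of broad peaks (4 pairs). Of the broad pairs, 4 of 7 in 748T, 4 of 4 in 106A and 14 of 22 in 961C had the H3K27me3 peak wholly inside, and the others crossed at an edge. Narrow H3K4me3 peaks were covered to a median of 65.2% in 748T, 36.3% in 106A and 74.8% in 961C.

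H3K4me3 peaks that carried H3K27me3 had lower median heights than other H3K4me3 peaks of their line in the middle and broad classes. Among middle peaks the median maximum height was 39 reads with H3K27me3 and 96 without it in 748T, 39.5 and 111 in 106A, and 23 and 48 in 961C. Heights are not scaled to depth and are compared within a list only. The ratio was 0.406 in 748T, 0.356 in 106A and 0.479 in 961C, and all 3 lines with overlaps showed the same direction. Broad peaks had medians of 71 and 122 reads in 748T, 77 and 136 in 106A, and 33 and 72 in 961C, with only 5, 2 and 15 peaks carrying both marks. Narrow peaks were 15 against 19 reads in 748T, but 23 against 20 in 106A and 15 against 12 in 961C.

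The gap in height was also present at like width. From 1000 to under 1500 bp, medians were 47 and 106 reads in 748T and 29 and 54 reads in 961C. From 500 to under 1000 bp they were 32.5 and 51 in 748T, 34 and 67 in 106A, and 19 and 26 in 961C. The height of H3K27me3 differed less, with a median of 13 reads on and 12 off H3K4me3 in 748T, 13 and 10 in 106A, and 14 and 12 in 961C. In 106A the ratio for middle peaks was 0.718 when peaks with a second track above 1 read were left out, which removed all but 3070 of its 15793 H3K4me3 peaks.

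**Figure D2:**
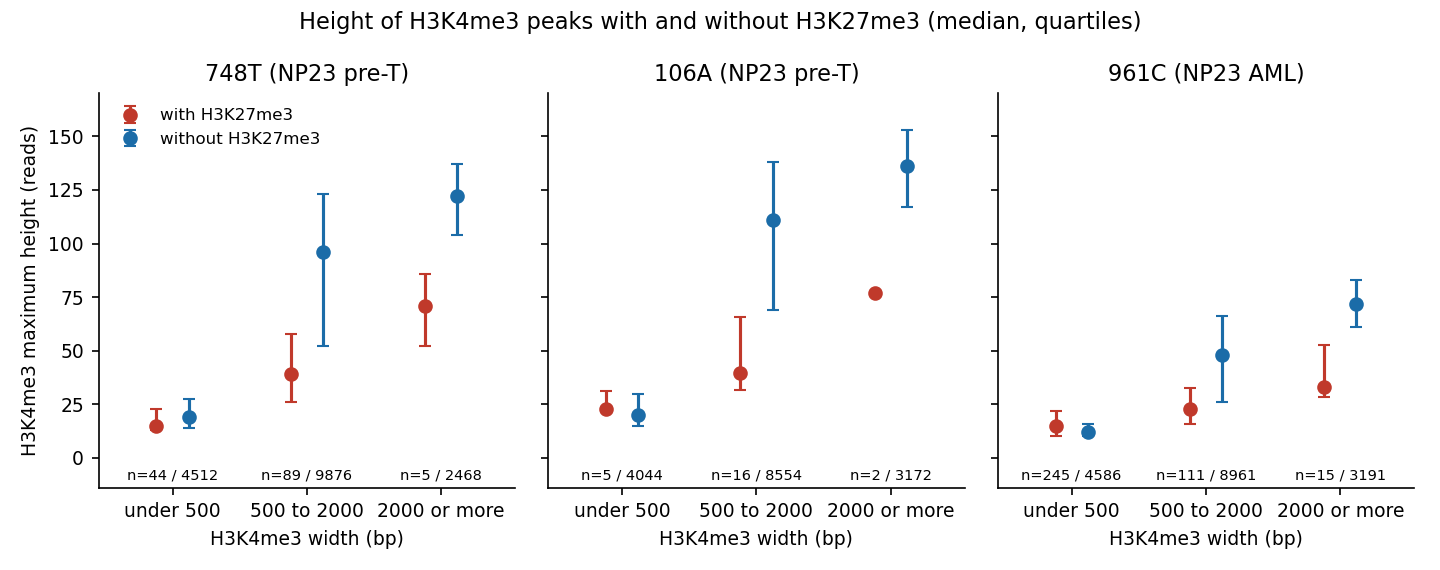
Maximum height of H3K4me3 peaks (y axis, reads) with and without H3K27me3 in 748T, 106A and 961C, for each width class (x axis, bp), with points for medians, bars for quartiles and n with and without. Middle peaks with H3K27me3 have medians of 39, 39.5 and 23 reads, below the 96, 111 and 48 reads of those without, whereas narrow peaks do not show this order in every line.

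Most H3K27me3 peaks lay more than 10 kb from H3K4me3, and so did most of the autosomal span. Distances alone therefore do not show avoidance. Densities per Mb, given further on, were higher within 10 kb outside H3K4me3 than beyond 100 kb in 748T, 106A and 961C. In 106A and 961C this order depends on the far zone chosen. In 106A the density was 2.57 peaks per Mb at 1 to 5 kb and 4.62 at 50 to 100 kb. In 961C it was 12.6 at 5 to 10 kb and 16.6 at 10 to 50 kb, although 15.6 in the first kilobase. In 748T it was higher near H3K4me3, with 9.62 at 5 to 10 kb and 6.76 at 10 to 50 kb. The median distance from an H3K27me3 peak to the nearest H3K4me3 edge, counting overlaps as 0, was 22759.5 bp in 748T (95% interval 21819 to 23853), 65059 bp in 106A (62308 to 67412), 37390 bp in 961C (36536 to 38134) and 82511.5 bp for the SCL-LMO1 control (79973 to 85207). Within 1 kb of H3K4me3, overlaps included, lay 5.84% of H3K27me3 peaks in 748T, 4.34% in 961C, 0.977% in 106A and 0.164% for the SCL-LMO1 control. The order of lines is 748T, 961C, 106A and the SCL-LMO1 control by either measure, and no intervals of neighbouring medians meet. With peaks of a second track above 1 read left out, the medians were 213798 bp in 106A and 144768 bp for the SCL-LMO1 control, which turns the order of these lines, and 23251 bp in 748T and 37891 bp in 961C. That limit leaves fewer H3K4me3 peaks to be near to, above all in 106A with 3070 of 15793.

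The closest approach in the SCL-LMO1 control was 138 bp, from an H3K27me3 peak at chr12:76955053-76955328 (mm9, 12 reads high) to a narrow H3K4me3 peak of 400 bp. The next was 183 bp, from chr4:128924945-128925161 to an H3K4me3 peak of 726 bp. In all, 8 of the 4868 peaks of the SCL-LMO1 control came within 1 kb.

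**Figure D3:**
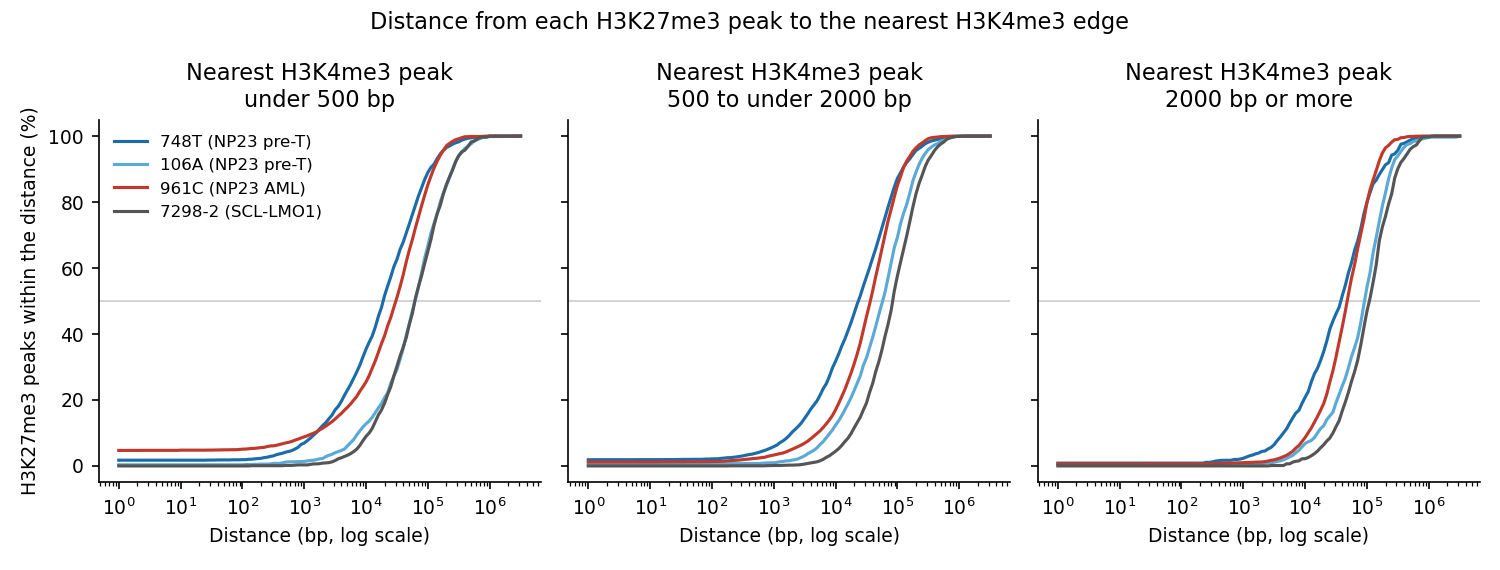
Cumulative share of H3K27me3 peaks (y axis, percent) by distance to the nearest H3K4me3 edge (x axis, bp, log scale) in the 4 lines (colours), with a panel for each width class of the nearest H3K4me3 peak and a grey line at the median. The curves in the broad panel lie furthest to the right, with medians of 37294 bp in 748T, 90517.5 bp in 106A, 48061 bp in 961C and 109720 bp for the SCL-LMO1 control.

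The median distance was longest in each line for H3K27me3 peaks whose nearest H3K4me3 peak was broad. Where the nearest H3K4me3 peak was broad, the median distance was 37294 bp in 748T, 90517.5 bp in 106A, 48061 bp in 961C and 109720 bp for the SCL-LMO1 control. Where it was narrow, the medians were 18918, 61409, 30369 and 61505 bp. Middle peaks lay between these in 748T, 961C and the SCL-LMO1 control, and in 106A they had the shortest median, 57932 bp.

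Counted from H3K4me3, fewer broad than narrow peaks had an H3K27me3 peak within 10 kb outside their edges in all 4 lines. The shares were 5.74% of broad and 12.3% of narrow peaks in 748T, 1.76% and 3.66% in 106A, 6.36% and 12.9% in 961C, and 0.373% and 2.38% for the SCL-LMO1 control. The difference averaged -4.25 percentage points (SD 2.65, n = 4 lines), and the exact sign-flip permutation test gave a two-sided p = 0.13, the smallest that 4 lines allow. This comparison includes the SCL-LMO1 control, where 11 of 2946 broad and 102 of 4284 narrow peaks had such a neighbour. The flank is of equal length for every class. Neighbouring H3K4me3 peaks were not excluded from the flanks. Within 50 kb broad peaks were again lower than narrow ones in all 4 lines, but in 961C the intervals overlapped. There the shares were 33.7% of broad peaks (32.0 to 35.3) and 34.8% of narrow peaks (33.4 to 36.1), with middle peaks highest at 37.5%.

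The density of H3K27me3 around H3K4me3 differed in shape between lines. From 1 bp to 10 kb outside H3K4me3, against beyond 100 kb, the log2 ratio of H3K27me3 peaks per Mb was 3.83 in 748T, 1.20 in 106A, 2.50 in 961C and -0.46 for the SCL-LMO1 control. The mean was 1.77 (SD 1.84, n = 4 lines), positive in 3 lines, with a two-sided exact sign-flip permutation p = 0.25. Without 748T the mean was 1.08. With the near zone cut to 1 kb, 106A turned to -0.17 and the SCL-LMO1 control to -2.44, and 748T and 961C stayed positive at 3.99 and 2.79. The zones beyond 100 kb include long stretches without peaks of either mark, where what could be mapped is unknown. Beyond 500 kb the density was 0.0900 peaks per Mb in 748T, 0.157 in 106A, 0.0547 in 961C and 0.209 for the SCL-LMO1 control. The log2 ratios above therefore rest in part on these sparse stretches.

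Beside the region 50 to 100 kb away, the first kilobase held more H3K27me3 in 748T, with 12.2 against 5.50 peaks per Mb. In 961C it held 15.6 against 14.4. It held less in 106A, with 1.13 against 4.62, and in the SCL-LMO1 control, with 0.277 against 4.23. In the SCL-LMO1 control the density was higher in each zone outward up to 100 kb, at 0.720 at 1 to 5 kb, 1.65 at 5 to 10 kb and 2.78 at 10 to 50 kb. By this contrast the lymphoblast NP23 lines lay on opposite sides of an even density. By the contrast of 10 kb with beyond 100 kb they lay on the same side, with log2 ratios of 3.83 in 748T and 1.20 in 106A.

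Next to broad H3K4me3 the density in the first kilobase was below that at 50 to 100 kb in 106A, 961C and the SCL-LMO1 control, with intervals that do not meet. In 748T they meet, at 2.77 (1.43 to 4.83, from 12 peaks) and 4.31 peaks per Mb (3.69 to 4.99). The values were 0 and 3.88 peaks per Mb in 106A, 2.46 and 18.5 in 961C, and 0 and 3.87 for the SCL-LMO1 control. Taking 0 to allow 3 peaks gives up to 0.555 peaks per Mb in 106A and 0.558 for the SCL-LMO1 control. The upper Poisson limits are 0.683 and 0.687. In 961C the density next to broad peaks was 4.04 at 1 to 5 kb, 9.04 at 5 to 10 kb and 16.2 at 10 to 50 kb. Around narrow peaks of 961C it was lower in the outer zones, at 14.2 from 10 to 50 kb and 9.62 from 50 to 100 kb.

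**Figure D4:**
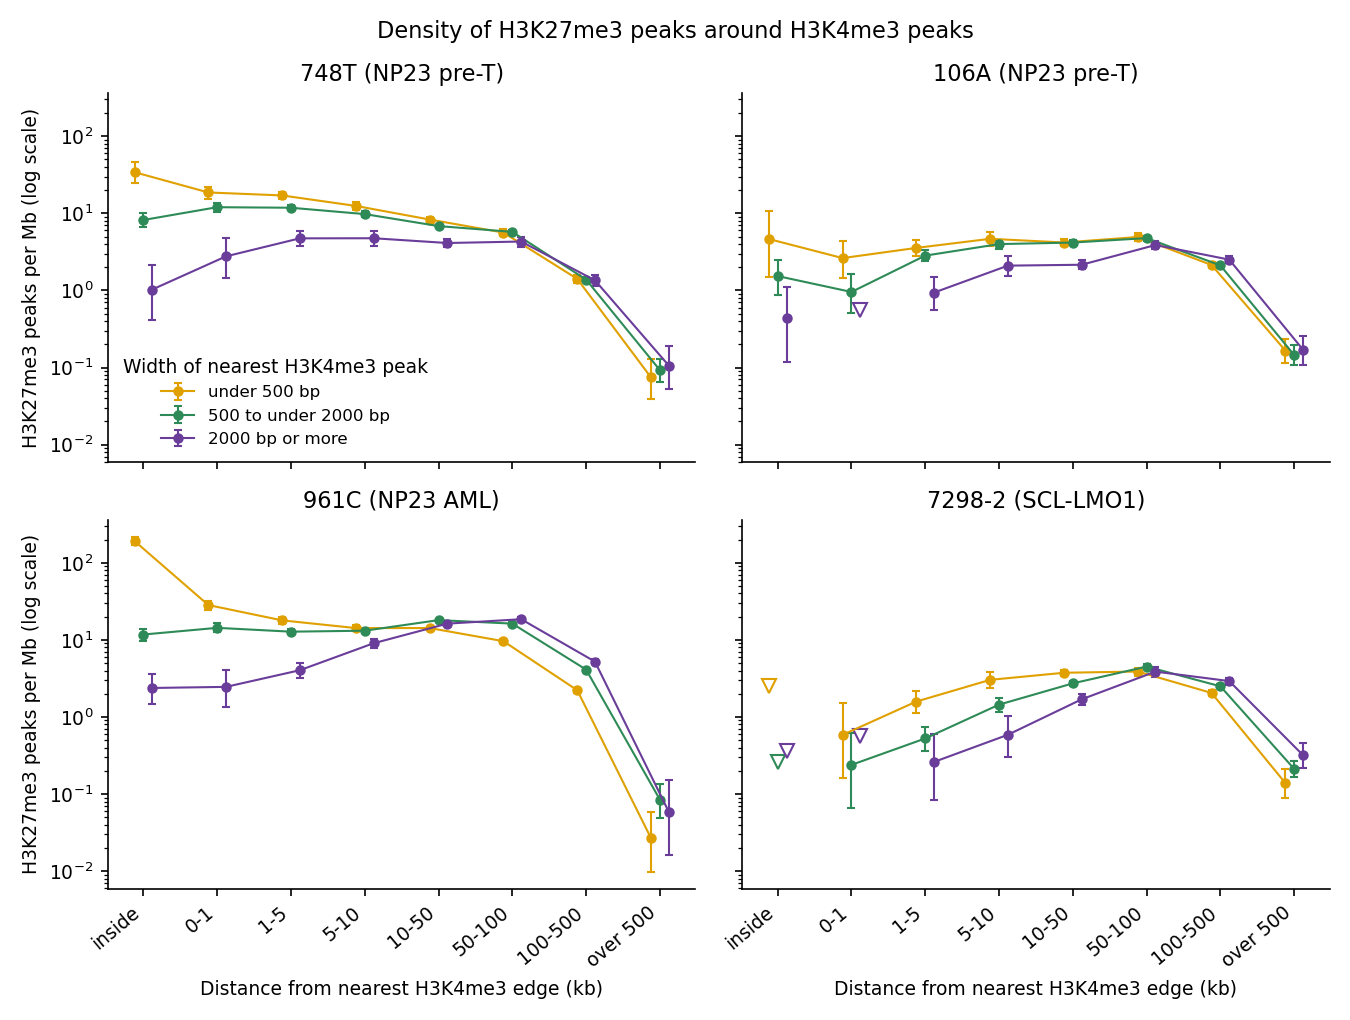
H3K27me3 peaks per Mb (y axis, log scale) by distance from the nearest H3K4me3 edge (x axis, kb) in each line and by width class of the nearest H3K4me3 peak, with 95% Poisson intervals and open triangles for the limit that a count of 0 allows. In 961C the density outside broad H3K4me3 is 2.46 peaks per Mb in the first kilobase and 18.5 at 50 to 100 kb, and in every line it is low beyond 500 kb.

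H3K27me3 peaks overlapping H3K4me3 or within 1 kb of it had larger median widths than those at 50 to 100 kb in the NP23 lines. A wider peak is also more likely to share 1 bp, and the part of this in the overlapping medians was not tested. In 748T the median H3K27me3 width was 296 bp where it overlapped, 268 bp within 1 kb and 196 bp at 50 to 100 kb. In 106A these medians were 289, 259.5 and 214 bp. In 961C they were 314, 435.5 and 286 bp, the widest being just outside H3K4me3. The median of 303 bp at 10 to 50 kb in 961C was close to that of its overlapping peaks. In the SCL-LMO1 control the 8 peaks within 1 kb had a median of 227.5 bp, against 230.5 bp at 50 to 100 kb.

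Overlaps were spread over the genome. By chromosome, 0% to 3.43% of H3K27me3 peaks overlapped H3K4me3 in 748T, 0% to 2.91% in 106A with 7 chromosomes at 0, and 0.888% to 4.10% in 961C. A further H3K4me3 peak with both marks lay within 10 kb for 14 of 138 peaks in 748T, 47 of 371 in 961C and 0 of 23 in 106A.

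The densest group in 961C was chosen after its values were seen, and holds 6 H3K4me3 peaks with both marks on chromosome 6 from position 52189277 on. They were 9 to 18 reads high, and 3 of the 6 were wholly covered by H3K27me3. The last 2 lie in one of the widest overlapping H3K27me3 peaks of 961C, chr6:52198375-52202229 (3855 bp). In 748T an H3K4me3 peak of 133 reads covered 1419 bp of that stretch, with no H3K27me3 peak. The SCL-LMO1 control likewise had H3K4me3 alone there, over 346 bp and 31 reads high, and 106A had no peak of either mark. The densest group in 748T, likewise chosen afterwards, has 4 peaks on chromosome 18 from 75526646 on. Its peak chr18:75529430-75530280 had H3K27me3 over 67.1% of its 851 bp, and was marked by H3K4me3 alone in 106A, 961C and the SCL-LMO1 control.

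In 961C the H3K4me3 peak with the most H3K27me3 was also the widest with both marks, chr13:40822928-40832115. It measured 9188 bp and held 5 H3K27me3 peaks over 2844 bp, or 31.0% of its length. In 748T, H3K4me3 covered 1648 bp of it, and neither 106A nor the SCL-LMO1 control had a peak of either mark there. Next came chr5:34338433-34341153, with 1899 of 2721 bp under H3K27me3, and chr8:124806579-124809076, with 1412 of 2498 bp. At the chromosome 8 site the H3K4me3 peak was 15 reads high in 961C, and 748T, 106A and the SCL-LMO1 control had H3K4me3 peaks of 100, 129 and 87 reads there with no H3K27me3.

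The widest H3K27me3 peak of 961C that touched H3K4me3 was chr11:118903000-118913558, 10559 bp long, with 138 bp of H3K4me3. It was the one named site with H3K27me3 peaks in all 4 lines, 5 of them in 748T, 9 in 106A and 1 for the SCL-LMO1 control. The next in width was chr19:45300900-45305391, 4492 bp long, where 333 bp carried H3K4me3 in 961C and no other line had a peak of either mark.

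In 106A the H3K4me3 peak with the most H3K27me3 was chr19:58527465-58530918, where 2 H3K27me3 peaks covered 2603 of 3454 bp. In 961C the same stretch had 5 H3K27me3 peaks over 1703 bp and no H3K4me3, and in 748T it had H3K4me3 alone, 139 reads high. At chr8:130882460-130884360 and chr15:37720912-37722024 H3K27me3 covered the whole H3K4me3 peak in 106A, with H3K4me3 heights of 53 and 36 reads. H3K4me3 stood there alone in 748T (115 and 112 reads) and in the SCL-LMO1 control (117 and 99 reads), and at the chromosome 8 site in 961C as well (63 reads). The widest H3K4me3 peak of 106A with both marks, chr8:118229137-118232671, had no peak of either mark in the other lines.

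In 748T the leading H3K4me3 peak was chr15:102806881-102808557, with 1116 of 1677 bp under H3K27me3. H3K27me3 alone covered 1142 bp of it in 961C. The widest overlapping H3K27me3 peaks of 748T were chr15:98724459-98727136 and chr1:74849870-74852471, 2678 and 2602 bp long. In 961C, H3K27me3 covered 100% of the first and 96.3% of the second, with no H3K4me3.

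**Figure D5:**
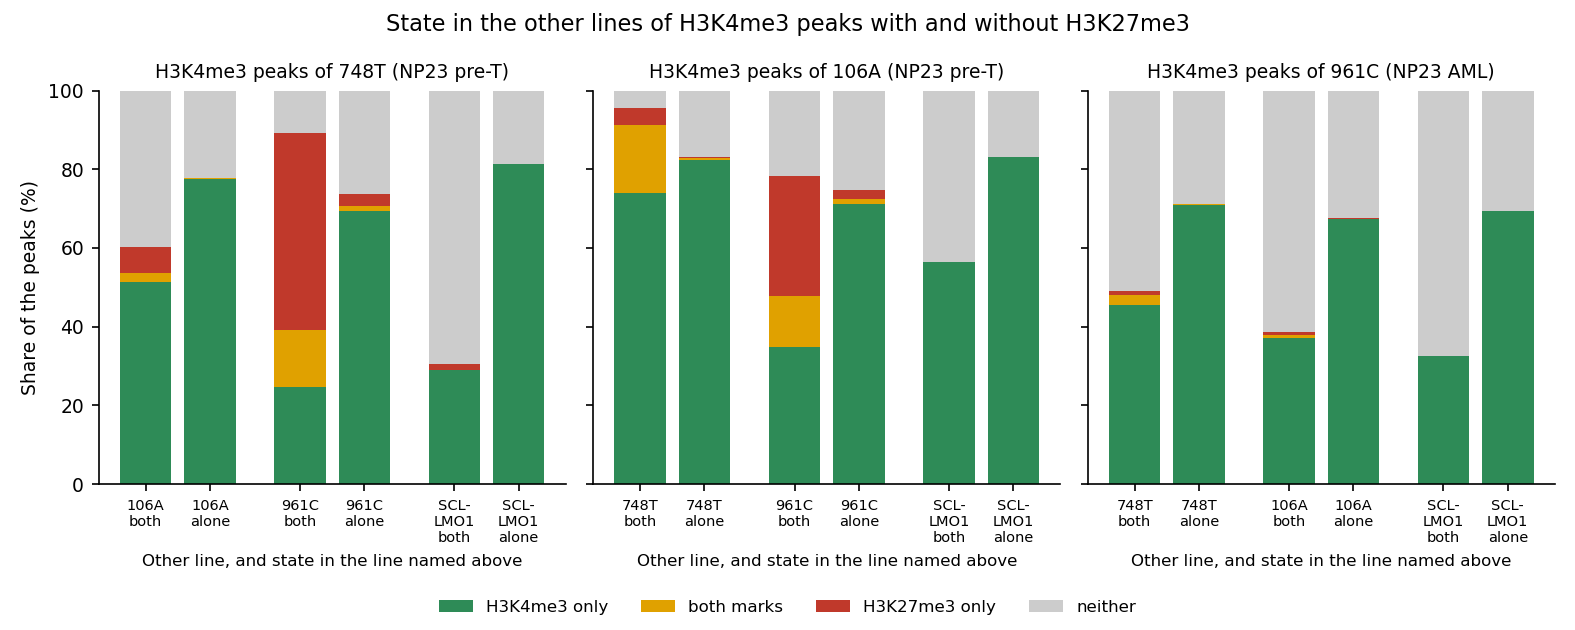
State in the other lines (y axis, percent of peaks) of H3K4me3 peaks that carry both marks (both) or H3K4me3 alone (alone) in 748T, 106A and 961C (panels), with a bar for each other line and state (x axis). H3K27me3, with or without H3K4me3, is present in 961C at 64.5% of the 748T peaks with both marks and at 4.33% of those with H3K4me3 alone.

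Many sites with both marks in 748T had H3K27me3 in 961C. Peaks with both marks were chosen for H3K27me3 in their own line, and H3K4me3-alone peaks lack it there by definition. Sharing of H3K27me3 sites between lines would by itself separate these groups. The share of all H3K27me3 peaks of a line that meet H3K27me3 in another line is not given here. Whether sites with both marks differ from other H3K27me3 sites was not tested. Of the 138 H3K4me3 peaks with both marks in 748T, 89 (64.5%, interval 55.9 to 72.4) met H3K27me3 in 961C, against 4.33% (4.03 to 4.65) of the 748T peaks with H3K4me3 alone. In 106A it was 12 of 138 (8.70%, 4.57 to 14.7), against 0.308% (0.230 to 0.404). Fewer of the 138 than of the H3K4me3-alone peaks had H3K4me3 in each other line. The shares were 29.0% (40 of 138) against 81.4% in the SCL-LMO1 control, 39.1% against 70.6% in 961C and 53.6% against 77.7% in 106A. The 138 peaks were also lower and narrower in 748T, with medians of 32.5 against 78 reads and 742.5 against 1017.5 bp. The part of this in the shares was not tested. Of the 23 peaks with both marks in 106A, 10 (43.5%) met H3K27me3 in 961C, against 3.55% of its H3K4me3-alone peaks, and 5 (21.7%) in 748T, against 0.698%.

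Of the 371 peaks with both marks in 961C, 13 (3.50%) met H3K27me3 in the shorter list of 748T, against 0.490% of the H3K4me3-alone peaks of 961C. H3K4me3 in 748T was met by 178 (48.0%) of them, against 71.1%, but the groups differ in width. Narrow peaks made up 245 of the 371, against 4586 of the 16738 H3K4me3-alone peaks. By class, H3K4me3 without H3K27me3 was present in 748T at 31.4% of narrow peaks with both marks, against 38.2% of narrow H3K4me3-alone peaks. These shares were 71.2% and 79.9% for middle peaks, and 86.7% and 92.1% for broad peaks, where 15 carried both marks. Of the 111 middle peaks with both marks in 961C, those with H3K4me3 in another line mostly ranked higher in height there. Their median height percentile was 35.0 in 961C and 52.6 in 748T, with 69 of 82 higher in 748T. It was 37.4 and 60.3 for 106A (57 of 61 higher) and 36.8 and 58.8 for the SCL-LMO1 control (48 of 58 higher). Among the H3K4me3-alone peaks of 961C, 53.0% ranked higher in 748T, 48.0% in 106A and 57.1% for the SCL-LMO1 control. The H3K4me3-alone peaks started from higher median percentiles in 961C, 62.2, 64.2 and 63.2 in the same order, and the part of this in the result was not tested. Middle peaks with both marks in 748T had 20 of 40 higher in 961C (50%, against 51.5% of the H3K4me3-alone peaks) and 32 of 56 in 106A (57.1%, against 40.3%).

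By whole peak, 20 of the 138 peaks with both marks in 748T (14.5%) met both an H3K4me3 and an H3K27me3 peak of 961C. Of the H3K4me3-alone peaks of 748T, 1.17% did. Merging the shared bases gave 555 stretches with both marks in some line, of which 11 had them in 2 lines and 0 in 3. There were 147 in 748T, 25 in 106A, 394 in 961C and 0 for the SCL-LMO1 control, which limits how many could be shared. How many stretches would recur given the recurrence of each mark alone was not tested. Of the 11, 7 were shared by 748T and 961C, 3 by 106A and 961C, and 1 by 748T and 106A. The widest was chr9:55174924-55175327 (404 bp, 106A and 961C), and chr9:55174182-55174523 nearby had both marks in 748T and 961C. The others of the 5 widest were chr11:102809748-102810096, chr4:131393237-131393529 and chr11:78959305-78959555, all in 748T and 961C. At the last of these the SCL-LMO1 control had H3K4me3 alone, 118 reads high, and at the other 4 it had no peak of either mark.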

How the data were processed

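Chromatin was fixed, sonicated, immunoprecipitated and sequenced with single-end reads, per the labels' protocols. CASAVA 1.9, BWA 0.5.9-r26 and build mm9 come from the submitters' processing notes. The sources used here name no peak caller, threshold or use of the inputs. Of 13 samples, the 4 inputs and the NP23 library did not enter.

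The lists deposited by the authors give regions of 1 library and a text field with mean and maximum pileup height, plus mean and maximum of a second track of unstated meaning. Heights show no scaling to depth, and depth is unknown. Starts were moved from 0-based to 1-based.

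Overlap (at least 1 bp), nearest edge distance, densities per Mb and medians were computed with Python 3.11.15, numpy 2.4.6, pandas 2.3.3 and scipy 1.17.1. Shares carry 95% Clopper-Pearson intervals and densities exact Poisson intervals. A count of 0 was taken to allow 3. Differences over the 4 lines were tested with two-sided exact sign-flip permutation tests at a threshold of 0.05. Overlap and distance functions were tested on simulated peaks. With Benjamini-Hochberg adjustment over the 3 permutation tests, each adjusted p was 0.25.

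Named regions are, per line, the 3 H3K4me3 peaks with the most H3K27me3 inside, the 3 widest H3K27me3 peaks overlapping H3K4me3, the widest broad H3K4me3 peak with both marks, and the 5 widest stretches with both marks in several lines, of which the report names most. Members and lists were chosen with earlier results of these data known. Gene lists and cell type markers did not enter, since gene positions were at hand for another build only, and genes at the named regions were not analysed here. Alternatives were other overlap, width and distance limits, equal numbers of H3K27me3 peaks, joining of peaks, a limit on the second track, all chromosomes, and leaving out each line. For heights and distances they were added after seeing the data.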

Additional observations from a re-analysis of the deposited data

Results flagged for a closer look

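The density of H3K27me3 peaks in the first kilobase outside H3K4me3, as a log2 ratio to that at 50 to 100 kb, was 1.15 in 748T and 0.12 in 961C, but -2.03 in 106A and -3.94 for the SCL-LMO1 control. The lines move in opposite directions, including 748T and 106A, which have the same label of NP23 pre-T LBL. The difference was not tested, since each line has 1 library per mark. In 106A 80.6% of H3K4me3 peaks had a second track above 1 read, against 0.706% in 748T, 2.17% in 961C and 59.2% for the SCL-LMO1 control, and the part of this in the result was not tested.

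Outside the autosomes, 961C had 5 of 544 H3K4me3 peaks on chromosome X that overlapped H3K27me3 (0.919%), and 7 of 43 (16.3%) on Y and unplaced sequence. The SCL-LMO1 control had 0 of 558 and 0 of 28.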

How the results depend on the processing

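The 3 tests pair values within a line, and no replicate block could be fitted because each line and mark has 1 library. Of 40 alternative values for the shares, 28 stayed within the interval of the share and 12 moved outside it. The 28 include all alternatives of the SCL-LMO1 control, each of them 0. Several of these could not move, since a stricter overlap limit or fewer peaks cannot add an overlap. Equal numbers also left its H3K27me3 list of 4868 peaks as it was. All 12 that moved belong to 748T, 106A and 961C, so the tally does not measure stability. The 32 alternatives of the 3 tests kept the direction of the mean, and none could pass the threshold of 0.05 with 4 lines or fewer, so their p-values say nothing about stability. Requiring 50% of the shorter peak, the H3K4me3 share was 0.594% in 748T and 1.80% in 961C, and the H3K27me3 share 1.27% and 1.66%. With equal numbers of H3K27me3 peaks, the H3K4me3 share was 0.530% in 748T and 0.988% in 961C, and the H3K27me3 share of 961C 3.45%. With peaks within 1000 bp joined, the H3K4me3 share was 0.999% in 748T and 2.63% in 961C, and the H3K27me3 share of 961C 2.90%. With a second track of at most 1 read, 106A had 0.261% and 0.177%. The causes were not tested.

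Leaving out 1 line at a time, the broad minus narrow difference ranged from -1.81 to -0.275 percentage points for overlap and from -5.03 to -3.47 for H3K27me3 within 10 kb, and the near minus far log2 ratio from 1.08 to 2.51. With 3 lines no two-sided p can go below 0.25. Counting inside H3K4me3 as the near zone gives no value over 4 lines, because the SCL-LMO1 control has no peak there. It gave 3.27 in 748T, -0.08 in 106A and 3.02 in 961C. Of 28 alternative values for distances and height ratios, 9 moved. The second-track limit took the median distance from 65059 to 213798 bp in 106A and from 82511.5 to 144768 bp for the SCL-LMO1 control, and so turned their order. The number of listed peaks limits the precision, most of all in 106A with its 23 overlapping H3K4me3 peaks.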
